A study of Mus musculus with 2 samples.

Results

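Pluripotency network genes were examined for 5-hydroxymethylcytosine (5hmC) in prospermatogonia of the mouse, which are the germ cells of a testis before birth. The 10 genes were Nanog, Gdf3, Dppa3, Pou5f1, Zfp42, Tcl1, Esrrb, Klf4, Lin28a and Tfcp2l1. Their peaks were those of the deposited list that overlapped a gene span or lay within 50 kb of it, and 88 of the 108395 peaks in the list met that rule. A peak near several of the genes was counted once, and 6 of the 88 lay near 2 of them, all in the stretch of chromosome 6 that holds Gdf3, Dppa3 and Nanog. By position, 29 peaks overlapped a gene span, 3 lay outside the span but within 1 kb of a gene end, and 56 lay farther out in the flanks.

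The cells were wild type and taken at E17.5 of embryonic development. Germ cells from more than one embryo were combined to 30000 cells, and 50 ng of their DNA entered 5hmC-Seal, in which a modified glucose is put on 5hmC, biotin is joined to it and the tagged fragments are caught on streptavidin. There were 2 samples of batch 1, a library of the caught fragments and a library of the input DNA, and the list analysed here is that of the caught fragments. There was no replicate, so no value below has a replicate error and no test between samples was possible. The list holds no read counts, and depth is therefore unknown. The fold enrichment of a peak, the ratio of captured signal to the background assumed by the peak caller, and its q value are the authors' values. Intervals are exact 95% intervals (Clopper-Pearson for shares, Poisson for densities) that cover counting error only.

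Pluripotency is held in the early embryo and in embryonic stem cells by a set of transcription factors that bind their own and each other's genes. Germ cells share several of these factors: Pou5f1, Nanog and Dppa3 are active in primordial germ cells, before the male germline leaves mitosis and regains DNA methylation. 5hmC is made when TET enzymes oxidise 5-methylcytosine, mostly in CG dinucleotides, so a peak marks DNA that had been methylated in at least part of the cells.

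Promoter sequences were available from RefSeq (GRCm38.p6, the build mm10) for 8 of the 10 genes, in 11 windows running from 250 bases before to 50 after a transcription start; Gdf3 and Dppa3 had none. Of the 11 windows, 1 overlapped a peak, that of the outer start of Esrrb, against 4.01% of the 21263 windows of protein-coding genes. A count of 1 in 11 is too small to tell whether peaks were more or less frequent than that share. The windows below show that promoter beside 3 without a peak: Nanog, with the fewest CG dinucleotides of the 8 genes, Zfp42, with an intermediate number, and Klf4, with the most. Each is written 5′ to 3′ on the strand of the gene, and capitals mark CG dinucleotides.
Esrrb, chr12:86360867-86361166, plus strand: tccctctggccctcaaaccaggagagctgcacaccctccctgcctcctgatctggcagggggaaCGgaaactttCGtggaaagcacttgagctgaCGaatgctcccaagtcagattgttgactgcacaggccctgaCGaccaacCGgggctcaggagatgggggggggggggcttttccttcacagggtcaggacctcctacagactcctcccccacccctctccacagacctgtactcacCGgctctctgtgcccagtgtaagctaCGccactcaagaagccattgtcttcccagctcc
Nanog, chr6:122707239-122707538, plus strand: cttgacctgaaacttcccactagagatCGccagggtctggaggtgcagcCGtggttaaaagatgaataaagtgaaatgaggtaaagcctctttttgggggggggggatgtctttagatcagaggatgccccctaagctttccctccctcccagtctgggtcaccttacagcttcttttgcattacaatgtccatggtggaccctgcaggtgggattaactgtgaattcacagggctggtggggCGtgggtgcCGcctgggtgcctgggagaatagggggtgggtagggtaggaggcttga
Zfp42, chr8:43306960-43307259, minus strand: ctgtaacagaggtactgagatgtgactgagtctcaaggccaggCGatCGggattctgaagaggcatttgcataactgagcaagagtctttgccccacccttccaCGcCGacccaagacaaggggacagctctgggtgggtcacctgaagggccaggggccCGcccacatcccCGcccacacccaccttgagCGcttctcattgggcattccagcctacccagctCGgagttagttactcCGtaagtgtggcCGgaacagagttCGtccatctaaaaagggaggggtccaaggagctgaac
Klf4, chr4:55532426-55532725, minus strand: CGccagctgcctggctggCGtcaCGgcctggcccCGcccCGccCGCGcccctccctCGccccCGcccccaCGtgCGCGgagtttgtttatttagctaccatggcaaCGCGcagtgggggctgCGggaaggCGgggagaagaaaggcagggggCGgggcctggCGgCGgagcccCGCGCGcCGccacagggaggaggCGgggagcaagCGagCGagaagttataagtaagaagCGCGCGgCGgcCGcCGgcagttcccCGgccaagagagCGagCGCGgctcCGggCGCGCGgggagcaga

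In the Esrrb window the peak began at base 84 and ran past the last base, 300, so that 5 of the 7 CG dinucleotides lay under it. The Nanog window held 4 CG dinucleotides, the Zfp42 window 11 and the Klf4 window 40. The windows of Pou5f1 (outer start) and Tcl1 also held 11 each, that of Lin28a 10 and that of Tfcp2l1 21. Among all protein-coding windows, a peak was most frequent where the window held 5 to 9 CG dinucleotides, at 14.3% (13.1 to 15.5) of 3161 windows. It was found in 4.37% (3.87 to 4.92) of windows with 0 to 4, in 2.53% (2.09 to 3.04) of those with 10 to 19 and in 0.340% (0.222 to 0.498) of those with 20 or more. The outer start of Esrrb fell in the class with the highest share, and Klf4 and Tfcp2l1 in the class with the lowest. The class of 5 to 9 also held the inner starts of Esrrb (7 CG) and Pou5f1 (6 CG), both without a peak.

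**Figure D1:**
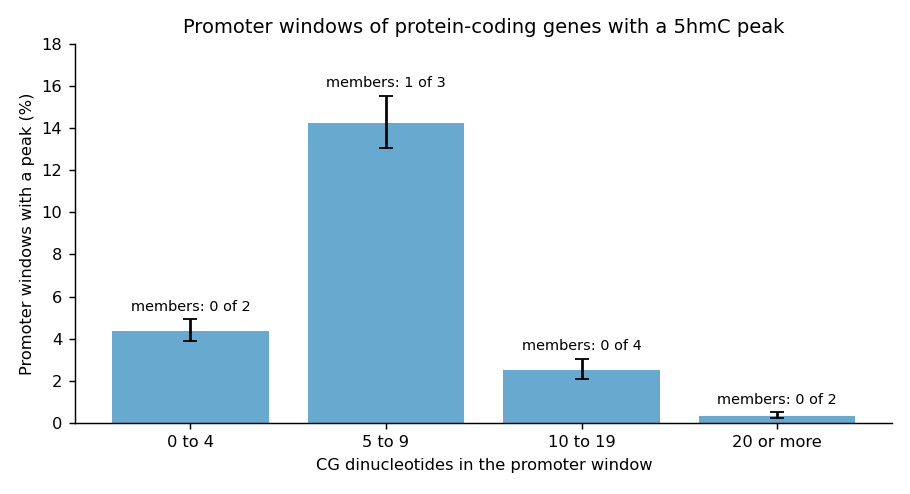
Share of protein-coding promoter windows (300 bases) that overlap a 5hmC peak, by the number of CG dinucleotides in the window; bars are shares in percent and error bars exact 95% intervals. The share was 14.3% at 5 to 9 CG and 0.340% at 20 or more, and the only pluripotency window with a peak, of Esrrb, was in the class of 5 to 9.

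Binding motifs were searched as exact letters on both strands of the windows. The octamer of POU factors, ATGCAAAT, was in the Zfp42 window and in none of the other 10, against 1.74% of the 32851 windows in the table. The Zfp42 window also held the Klf motif CCACACCC, found in 3.56% of all windows. The GC box GGGCGG was in 5 of the 11 windows, 4 times in that of Klf4, against 35.7% of all windows. The SOX motif ACAAAG (18.7% of all windows) and the Esrrb motif TCAAGGTCA (0.423%) were in 0 of the 11. An octamer part and a SOX part in tandem, TTTGCAT and after 1 base ACAATG, were added to the search after the Nanog sequence had been read; 2 of the 32851 windows matched, and those were the overlapping windows of the 2 Nanog starts. No peak overlapped the Nanog window, and the nearest ended 2112 bp before the outer start.

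Peaks were frequent at the ends of these genes. Within 1 kb of either end, 8 of 10 genes had a peak (80%; 44.4 to 97.5), against 26.6% of the 21779 protein-coding genes and 33.2% of the 7071 protein-coding genes of 3 to 16 kb, the lengths of 8 of the 10. Lin28a and Tfcp2l1 had none. A peak overlapped the span of 9 of 10 genes (90%; 55.5 to 99.7), all but Dppa3, against 61.6% of protein-coding genes and 52.9% of those of 3 to 16 kb. All 10 had a peak within 50 kb, which 93.9% of protein-coding genes also had. Several of these genes were already known from these data to have gene-end peaks when the set was put together, so the counts describe the set and do not test it. Most of the peaks involved were weak: with −log10 q of at least 2, 4 of 10 genes kept a gene-end peak, against 10.5% of protein-coding genes, and with at least 3 only Tcl1 did, against 4%.

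Where the direction of transcription was known, gene-end peaks lay mostly at the far end, where transcription stops, and not at the start. A peak was within 1 kb of the far end in 6 of 8 genes (Nanog, Pou5f1, Zfp42, Tcl1, Esrrb and Klf4; 75%, 34.9 to 96.8), against 21.2% of the 17492 protein-coding genes with a start in the promoter table and 26.3% of those of 3 to 16 kb. A peak was within 1 kb of the start in 2 of 8 (Tcl1 and Esrrb; 25%, 3.19 to 65.1), against 8.38% and 10.5%. A peak at the far end without one at the start was found in 4 of 8 genes and in 18.1% of protein-coding genes, and the reverse in 0 of 8 and in 5.28%. More peaks at far ends than at starts was thus a feature of protein-coding genes at large. Over all of them, 2.70% had a peak at the start itself and 5.24% at the far end itself. Around the start the share was lowest 0.5 kb before it, at 1.87%. Around the far end it was highest 1 kb before it, at 10.2%. Farther inside the gene the shares were closer, at 7.41% 2.5 kb after the start and 8.43% 2.5 kb before the far end. The counts in the 8 genes describe the set and do not test it, since several gene-end peaks were known when it was chosen. They also depended on weak peaks and on the window. With −log10 q of at least 2, a peak was left at the start of 0 of 8 genes (3.06% of protein-coding genes) and at the far end of 4 (8.27%); with at least 3, at the far end of 1 (3.13%). A window of 250 bp left 1 start (4.16%) and 2 far ends (9.61%). Counting a peak by its midpoint left 3 far ends, and the share over protein-coding genes by midpoint is not given here.

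**Figure D2:**
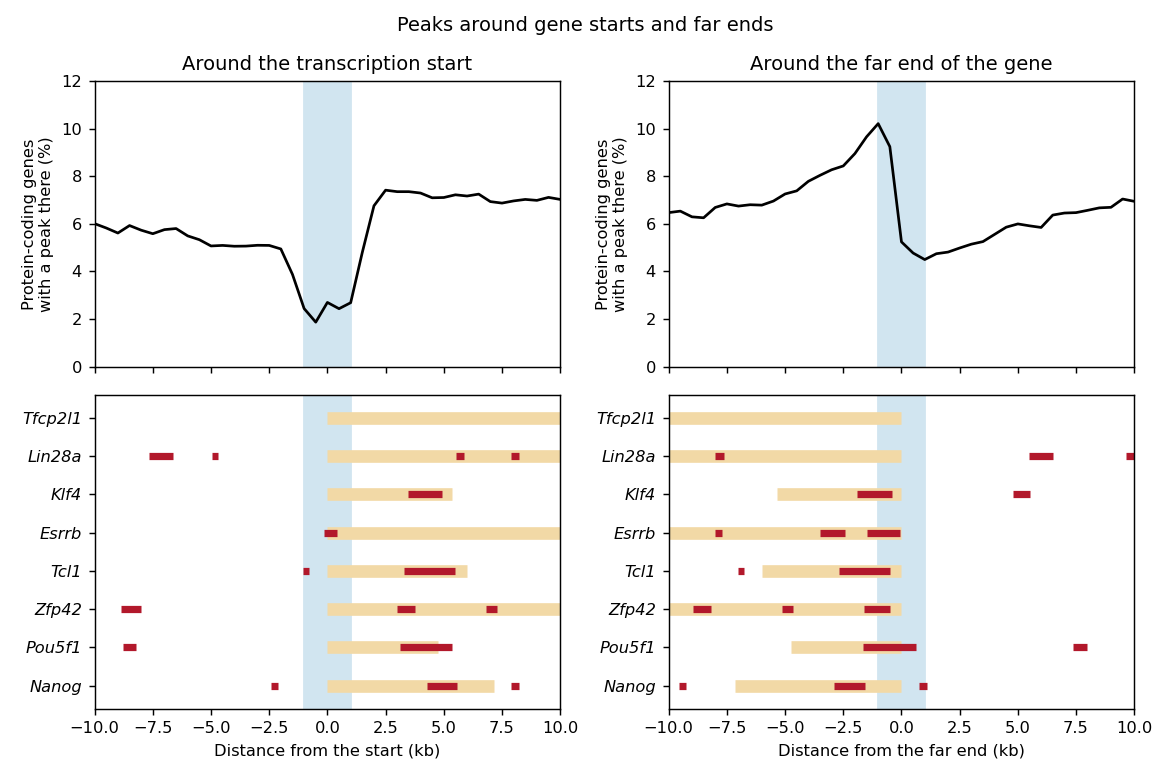
Peaks within 10 kb of the start (left) and far end (right) of genes, in the direction of transcription; upper panels give the percentage of 17492 protein-coding genes with a peak at each distance, in steps of 0.5 kb, and lower panels the gene span (pale) and peaks (red) of the 8 pluripotency genes with a known start. Blue bands mark 1 kb on each side; 6 genes had a peak in the band at the far end and 2 in the band at the start.

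The core factors came first. Pou5f1 (chromosome 17, 35506032 to 35510777, plus strand) encodes OCT4, the POU factor without which pluripotency is lost. It had 1 span peak, of fold 3.59 and 2258 bp, the widest in any of the 10 spans. That peak began 3109 bp after the start, covered the gene from 65.5% of its length to its far end and ran 621 bp beyond. In all 34.5% of the gene was covered, which placed it at percentile 96.4 of protein-coding genes of all lengths. The annotated inner start of Pou5f1 lay 334 bp before this peak. The nearest peak upstream of the outer start ended 8239 bp away, so no peak was called in the stretch next to the promoter.

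Nanog (chromosome 6, 122707489 to 122714633, plus strand) encodes a homeodomain factor of the same core. A peak of fold 2.98 and 1326 bp lay in it, from 59.7% to 78.2% of its length, and covered 18.6% of the gene. A stronger but narrower peak, of fold 3.89 and 343 bp, began 742 bp past the far end. Upstream, 6 peaks lay within 50 kb, the nearest 2112 bp from the start and the highest of fold 4.12. Downstream, the 4 flank peaks lay in Slc2a3, a glucose transporter gene, and the highest of all near Nanog was among them, at fold 4.43.

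Among the factors of the naive state, the ground state of stem cells, Klf4 and Zfp42 had their gene-end peak at the far end. Klf4 (chromosome 4, 55527137 to 55532475, minus strand), a zinc finger factor used in reprogramming, had 1 span peak of fold 3.14 and 1481 bp, from 64.5% to 92.3% of its length, which covered 27.7% of the gene. Upstream of that peak, 44.9 kb that included the CG-rich promoter held no peak. Downstream, 6 flank peaks had folds of 2.77 to 3.44. None of the 8 peaks near Klf4 reached a −log10 q of 2.

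Zfp42 (chromosome 8, 43295067 to 43307009, minus strand), which encodes REX1, a zinc finger marker of the naive state, had 3 span peaks. Their folds were 3.84 nearest the far end, 3.40 in the middle and 2.77 nearest the start. They covered 19.7% of the gene. Upstream, 3 peaks between 8006 and 13206 bp from the start had folds of 4.95, 3.90 and 5.37. The last of these was the highest of all 88 peaks and, with a −log10 q of 5.14, the only 1 to reach 5.

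Esrrb (chromosome 12, 86361117 to 86521628, plus strand) encodes an orphan nuclear receptor and, at 160.5 kb, is the longest of the 10. It held 17 of the 29 span peaks and was the only gene with a peak over its outer start, at fold 2.81. Peaks were spread along the gene, 6 with their centre in the first part up to midway and 11 in the last part, and together they covered 9.18% of it. Density in the span was 10.6 peaks per 100 kb (6.17 to 17.0), against 5.82 (5.77 to 5.87) in the joined spans of autosomal protein-coding genes. The 10 genes were chosen with earlier results of these data known, so this density describes the gene and does not test it. The highest, of fold 5.04, was only 269 bp wide and lay at 95.02% of the length. At the far end a peak of fold 3.27 and 1394 bp stopped 79 bp short of the annotated end. The inner start of Esrrb was 1895 bp from the nearest peak.

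Tfcp2l1 (chromosome 1, 118627923 to 118685168, plus strand), a Grainyhead-family factor that acts downstream of LIF signalling, had fewer span peaks than Esrrb. It had 2 span peaks, of fold 3.38 and 2.91, which covered 1.24% of its 57.2 kb, below the median of 2.25% for protein-coding genes. Its start lay in a stretch of 73.5 kb without a peak, the longest gap that touched its window. By number, 6.20% of the gaps between neighbouring autosomal peaks were as long. This share by number does not tell how much of the autosomes such gaps hold. The interval of its density, 3.49 peaks per 100 kb (0.423 to 12.6), overlapped that of Esrrb.

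**Figure D3:**
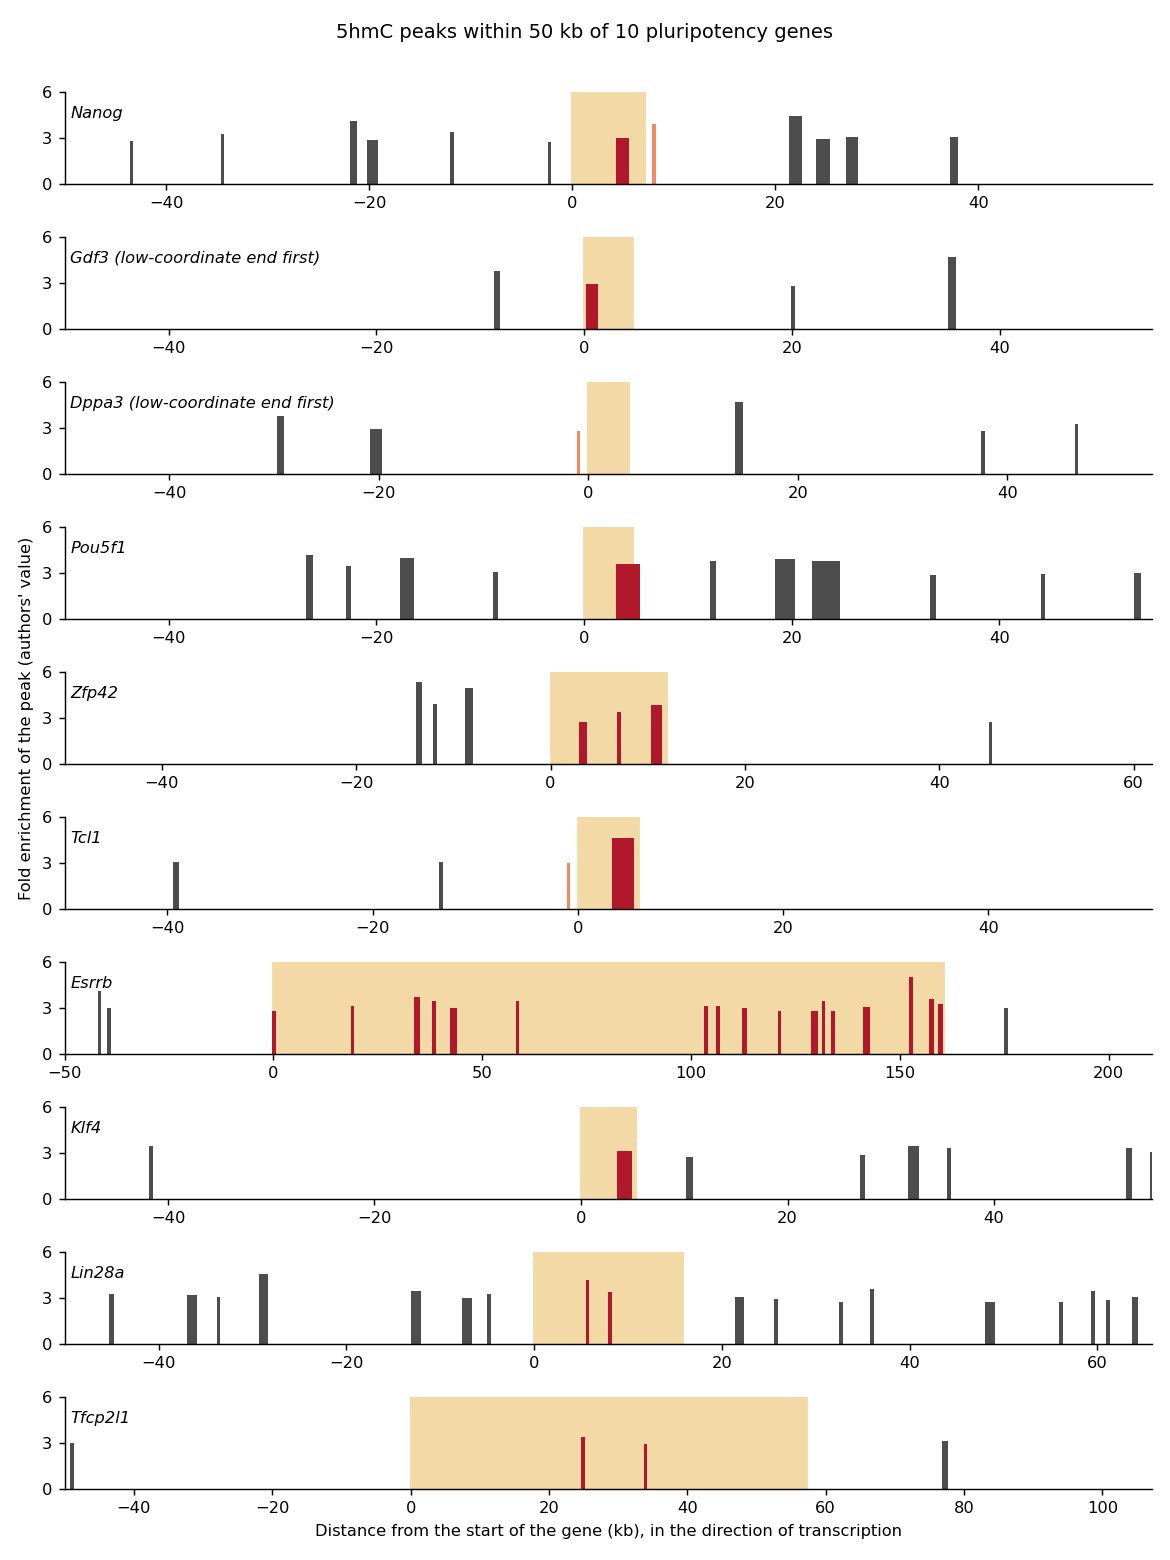
Peaks within 50 kb of each gene by distance from its start (kb) and fold enrichment (bar height, authors' values); the pale band is the gene span, red bars overlap it, orange bars lie outside it within 1 kb of a gene end and grey bars are flank peaks. Gdf3 and Dppa3 are drawn from the end with the lower coordinate, peaks too narrow to see are widened, and the 17 span peaks of Esrrb stand against 0 to 3 in the other genes.

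Gdf3, Dppa3 and Nanog are neighbours on chromosome 6, and the 3 differed. Gdf3 (122605403 to 122610087) encodes a TGF-beta family ligand. It had a peak of fold 2.91 and 1198 bp that began 136 bp inside its lower-coordinate end and covered 25.6% of it. Dppa3 (122626424 to 122630271), whose product STELLA shields the maternal genome from loss of methylation in the zygote, had no peak in its span, the only 1 of the 10 without. Its gene-end peak, of fold 2.83 and 334 bp, lay 771 bp outside its lower-coordinate end. The highest peak between Dppa3 and Nanog, of fold 4.71, was 10157 bp from Dppa3 in sequence outside any gene. With 1 gene kept for this stretch, 6 of 8 genes had a gene-end peak.

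Tcl1 and Lin28a act outside transcription. Tcl1 (chromosome 12, 105216753 to 105222737, minus strand), a co-activator of AKT kinase, had the highest gene-end fold of the 10. Its peak, of fold 4.66, −log10 q 4.15 and 2192 bp, ran from 55.0% to 91.6% of the gene and covered 36.6% of it. That was percentile 96.9 of protein-coding genes of all lengths. A weaker peak, of fold 2.98, lay 773 bp upstream of the start. From the edge of the stronger peak towards and past the far end, no peak was called for 104.7 kb. That stretch holds the related genes Tcl1b1 to Tcl1b5. It was the longest gap that touched the Tcl1 window, and by number 3.64% of autosomal gaps were as long. That share does not tell how much sequence such gaps hold. Copies alike in sequence can lose reads that map to several places, and this was not tested.

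Lin28a (chromosome 4, 134003330 to 134019196, minus strand) encodes an RNA-binding protein that blocks maturation of let-7 microRNAs. It had 18 peaks within 50 kb, more than any other of the 10 except Esrrb with 20, but only 2 in its span and 0 at its ends. The span peaks had folds of 4.17 and 3.43, were 344 and 383 bp wide and lay between 34.9% and 52.0% of the length, and 4.58% of the gene was covered. Of the flank peaks, 5 lay in the neighbouring gene Dhdds, which encodes an enzyme of dolichol synthesis. The highest, of fold 4.61, was 28338 bp upstream of the start.

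In the 4 genes of known direction with 1 span peak (Nanog, Pou5f1, Tcl1 and Klf4), its centre lay between 68.9% and 82.7% of the gene's length. In protein-coding genes of 3 to 16 kb with 1 span peak, 61.7% of 1718 had the centre past midway, with a median of 60.6%. The 4 genes thus shared a position in the last part of the gene, which most genes of that kind also had. In Pou5f1, Tcl1 and Klf4 this peak was also the one counted at the far end. Several gene-end peaks were known when the set was chosen, so the shared position describes the set and does not test it.

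Cover was higher in 6 of the 8 genes under 16 kb than in Esrrb and Tfcp2l1; the other genes under 16 kb were Lin28a, at 4.58%, and Dppa3, with none. The median share of the span under peaks was 19.1% over the 10 genes, against 2.25% over all protein-coding genes and 2.70% over those of 3 to 16 kb. Several gene-end peaks were known when the set was chosen, and 7 of the 10 peaks touching a gene end also overlapped a span. The cover therefore describes the set and does not test it. Among the 8 genes of 3 to 16 kb it was 22.6%, and 8 of the 10 were above the median of all protein-coding genes. In protein-coding genes of 3 to 16 kb that had a span peak at all, the median was 13.9% and the 90th percentile 37.6%. The 90th percentile was 20.9% over all protein-coding genes and 29.3% over those of 3 to 16 kb. The spread among the 10 was wide, from 0% in Dppa3 and 1.24% in Tfcp2l1 to 36.6% in Tcl1. With −log10 q of at least 2 the median over the 10 genes fell to 0.880%, and that over all protein-coding genes to 0%.

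**Figure D4:**
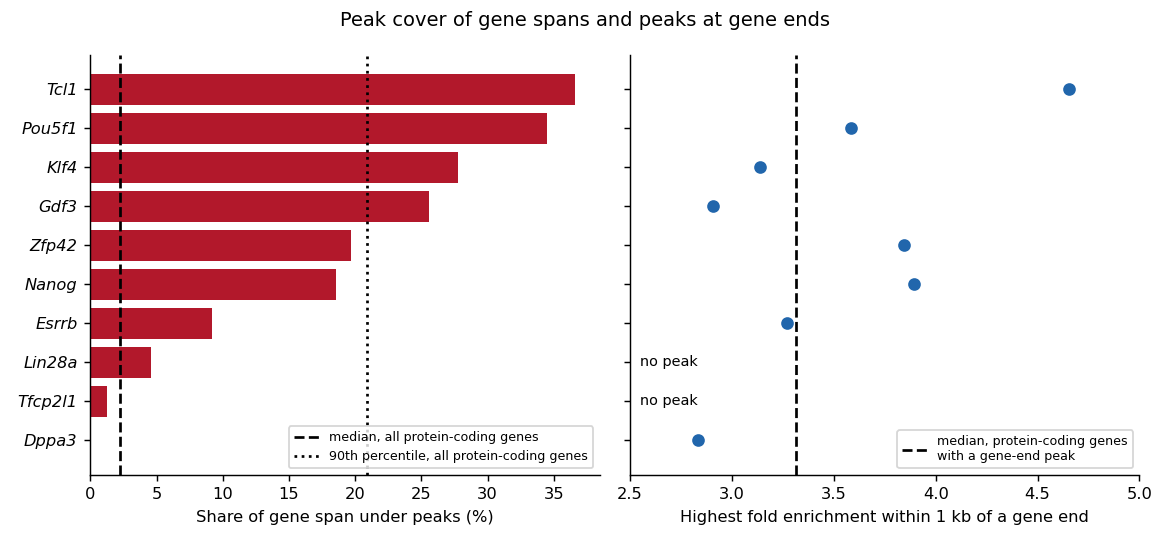
Left, share of each gene span covered by peaks (%), with the median (dashed) and 90th percentile (dotted) of all protein-coding genes; right, highest fold enrichment within 1 kb of a gene end, with the median of protein-coding genes that have such a peak (dashed). Cover was highest in Tcl1 at 36.6% and Pou5f1 at 34.5%, and Lin28a and Tfcp2l1 had no gene-end peak.

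The peaks themselves were not strong. The 88 peaks had a median fold of 3.15, with values from 2.72 to 5.37, against 3.35 over the whole list, 3.28 over peaks within 50 kb of protein-coding genes and 3.24 over those in protein-coding spans. A −log10 q of at least 2 was reached by 24 of 88 (27.3%; 18.3 to 37.8), against 43.8% of all peaks, 39.4% of those within 50 kb of a protein-coding gene and 35.1% of those in protein-coding spans. At least 3 was reached by 9 of 88 (10.2%; 4.78 to 18.5), against 24.2% of all peaks and 19.4% of those within 50 kb of a protein-coding gene. At 5 or more there was 1 (1.14%; 0.0288 to 6.17), against 11.9% and 8.65%. The 9 with at least 3 lay near 8 of the 10 genes, since none was near Klf4 or Tfcp2l1. Among them, the peak of fold 4.71 counted for both Gdf3 and Dppa3. The share of protein-coding genes with such a peak within 50 kb was not computed, so the 8 has no background beside it. Gene-end folds of the 8 genes ranged from 2.83 to 4.66 with a median of 3.43, close to the 3.31 of all protein-coding genes with a gene-end peak.

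Span peaks were wider by median than flank peaks, with overlapping intervals for the share of wide ones. Over 1 kb wide were 14 of 29 span peaks (48.3%; 29.4 to 67.5) and 13 of 56 flank peaks (23.2%; 13.0 to 36.4), against 29.7% of all peaks. Median widths were 966 and 553 bp. Median folds were close, at 3.16 and 3.11. In the spans 10.5 peaks per 100 kb were called (7.003 to 15.0), and outside them, gene ends included, 6.60 (5.03 to 8.52). Over autosomal protein-coding genes these densities were 5.82 and 4.72. The 4.72 leaves out the spans of all protein-coding genes, whereas the 6.60 includes other genes in the flanks. The 6.60 and 4.72 thus cover unlike sequence. The intervals of spans and flanks of the 10 genes overlapped. Of the 29 span peaks, 17 lay in Esrrb and 7 touched a gene end. Several gene-end peaks were known when the set was chosen, so these densities describe the set and do not test it. Of the 56 flank peaks, 37 lay in no gene and 16 in another protein-coding gene. For the 8 genes of known direction, 25 flank peaks were upstream and 28 downstream. The flank limit of 50 kb passed just beyond a peak 49796 bp from Klf4, of fold 3.06, and left out one 51301 bp from Esrrb, of fold 3.504.

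The rest of the network was described from a list. Of its 30 further pluripotency genes, 13 had a gene-end peak (43.3%; 25.5 to 62.6), against 26.6% of protein-coding genes, a share inside that interval. The list was chosen with earlier results of these data known, so its counts describe it and do not test it. A span peak was found in 20, near the 61.6% of protein-coding genes, and the median cover was 4.69%. By role, a gene-end peak was found in 1 of 4 core factors, 1 of 8 naive-state factors, 5 of 10 markers and targets, 2 of 3 signalling genes, 2 of 2 RNA regulators and 2 of 3 growth and chromatin genes. The highest folds were 6.98 at Rif1, a factor of replication timing, 4.53 at Sall4, a zinc finger partner of OCT4, and 3.73 at Prdm14, a factor of germ cell specification and of the naive state. Lefty1, a Nodal antagonist, had 3.51 and Sox15, a SOX factor, 3.36. Of the 18 with a known start, 4 had a peak at the start and 6 at the far end, against 8.38% and 21.2% of protein-coding genes. Sox2, the SOX partner of OCT4, named after its values were seen, had no peak in its span or at its ends and 10 within 50 kb.

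Genes of the primed state, which follows the naive one, had a gene-end peak in 1 of 8 cases, Zic2 at fold 2.93, and a median cover of 1.72%; the share over all protein-coding genes, 26.6%, applies to this and the next counts. Genes that specify primordial germ cells had one in 6 of 9, with a median cover of 11.2%; the highest were the ligand gene Bmp4 at 6.02 and Tfap2c at 3.76. These lists, the markers below included, were also chosen with earlier results of these data known. Their counts describe them and do not test them. A peak on DNA does not measure expression, so the labelled cell type could not be checked from markers. Gene-end peaks were found in 1 of 4 germ cell markers (Dnd1, 3.29), 5 of 10 markers of the gonadal soma (Lhcgr, 4.82, and Gata4, 3.36, highest) and 3 of 8 markers of blood and endothelium (Tie1, 4.23, and Spi1, 4.205, highest). Dnd1 is also among the 9 specification genes, so the same peak counts in both lists.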

How the data were processed

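The samples were 1 captured 5hmC-Seal library and 1 library before capture, grouped by the treatment label; only the captured library's peak list was analysed. Per the submitters' processing notes, the build was mm10 and the tools included MACS2 2.1.0, Bowtie2 2.5.0, deepTools 3.5.1, SAMtools 1.16.1, Trim Galore and bedtools 2.27.1. The settings and control of the caller and the treatment of multi-mapped reads were not given in the sources used here. Each peak of the deposited list has the authors' fold enrichment (a ratio), −log10 p, −log10 q and a deposited score of about 10 times the −log10 q. The lowest −log10 q was 1.01, so weak calls are in the list, and a change of threshold changes counts strongly.

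Gene spans came from a RefSeq table of GRCm38.p6. Of 49997 genes, 49603 were used, 21779 of them protein-coding; 340 that start in the opening 3 Mb of a chromosome other than Y, and 54 not placed on an autosome, X or Y, were left out. The table gives no exons, so exons, introns and UTRs were not used here. Direction and start came from the RefSeq promoter table, and the start was the outer edge of the span; 17492 protein-coding genes had one. A peak counted by an overlap of 1 bp with the span or with 1 kb on each side of a gene end. Overlap functions were tested on simulated data. All 69 list symbols were found, with Dnd1 counted in both of its lists. Python 3.11.15, pandas 2.3.3 and scipy 1.17.1 were used.

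The genes named are the 10, the 5 further pluripotency genes and the 2 genes of each other list (primed state, primordial germ cell specification, germ cell markers, gonadal soma, blood and endothelium) with the highest gene-end fold, and the highest or widest peaks near each of the 10. The members and lists were chosen with earlier results of these data known. The split into start and far end, the comparison with genes of 3 to 16 kb and the added motif were chosen after seeing the data.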

Additional observations from a re-analysis of the deposited data

How the results depend on the processing

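Stricter thresholds on the peaks changed the counts most. When −log10 q had to be 2, 3 or 5 and above, peaks near the 10 genes numbered 24, 9 and 1. Genes with a gene-end peak numbered 4, 1 and 0, against 10.5%, 4% and 1.27% of protein-coding genes. Genes with a span peak numbered 5, 3 and 0, against 41.1%, 22.6% and 8.83% of protein-coding genes. The median cover was 0.880%, 0% and 0%. Peaks per 100 kb were 2.52, 1.08 and 0 in spans and 1.90, 0.671 and 0.112 outside them. At 5 or more the median fold was that of the 1 peak left, 5.37. A gene-end window of 250 bp left 3 genes with a gene-end peak, against 13.1% of protein-coding genes, and a flank of 100 kb gave 136 peaks. Leaving aside the counts at starts and far ends, the other 28 of the 49 values under other settings were within 1.5 times the reported ones. Those from peak midpoints, merged peaks and 1 gene per run were among these 28. Far ends with a peak numbered 4, 1 and 0 of 8 at the 3 thresholds, against 8.27%, 3.13% and 0.966% of protein-coding genes. By midpoint they numbered 3, and the share over protein-coding genes by midpoint is not given here. Depth is unknown and there is 1 library, so weak peaks could not be checked. No paired analysis was possible because there is 1 captured library and no replicate.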
